A study of Mus musculus with 10 samples.

Results

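The SOCS family (suppressors of cytokine signalling) comprises 8 genes, Socs1 to Socs7 and Cish. They were chosen by name from the 13809 genes of the deposited table, which lists all 8, and all 8 passed the filter on low values (10 or more in at least 2 libraries). Transcripts were measured by RNA sequencing in 10 libraries of bone marrow macrophages from C57BL/6 mice aged 12 weeks. Resident macrophages, labelled CD163+, were ferromagnetic cells that an unstained magnetic column held back, and BMDM (bone marrow derived macrophages), labelled CD163-, were cultured from its flow-through. The culture medium for BMDM held 20% L929 cell supernatant, a source of macrophage growth factor, given as 6 days of culture in the growth protocol but as 7 days in the titles. Cells of each kind received lipopolysaccharide (LPS, 1 µg/ml, 4 h), a bacterial ligand of Toll-like receptor 4, or no treatment. The titles of the untreated samples also give 4 h. The 4 groups were untreated resident macrophages (3 libraries), LPS-treated resident macrophages (3), untreated BMDM (2) and LPS-treated BMDM (2). No transgene or mutant allele is named for any group. Nothing in the labels ties a library to its own animal or culture, and the p-values reflect only how these libraries spread, which may be technical.

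SOCS proteins are feedback brakes on cytokine receptors. Cytokine binding activates receptor-bound JAK kinases, these activate STAT transcription factors, and STATs in turn induce several SOCS genes. Each protein carries an SH2 domain that binds phosphorylated tyrosines and a SOCS box that recruits elongins and a cullin ubiquitin ligase. SOCS1 and SOCS3 also hold a short kinase inhibitory region that blocks JAKs directly, and in macrophages both are known as feedback genes of interferon, IL-6 family and Toll-like receptor responses.

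Values are normalized reads, that is, read counts divided by a factor for each library. Each library held 27.1 to 37.7 M recovered reads, against normalized totals of 24.7 to 38.8 M. Cd163, the gene of the labelled surface marker, lay between 4131 and 10740 in the 6 resident libraries and between 14.4 and 53.9 in the 4 BMDM libraries. The macrophage genes Adgre1 and Csf1r were at 10457 or more in all 10 libraries. They belong to a list of 14 macrophage markers that did not go 1 way. In untreated resident cells 8 of the 14 were higher than in untreated BMDM and 6 lower. Of all genes, 39.2% were higher and 32.6% lower. The 15 neutrophil markers summed to 0.775% to 1.60% of a library's normalized reads in untreated resident libraries and to 1.23% to 1.45% in LPS-treated ones. In BMDM the sum was 0.0105% to 0.0106% untreated and 0.0194% to 0.0204% with LPS, and Ly6g stood at the floor of 1 in all 4 libraries. Markers of B lineage (12 of 13 tested), T and NK (11 of 12), mast cell, basophil and eosinophil (12 of 13), erythroid (14 of 14), megakaryocyte (10 of 11) and stem (10 of 10) cells were also higher in untreated resident cells. The part of these cells in the results below was not tested, and in bulk samples fewer cells of a type and less RNA per cell cannot be told apart. The resident libraries numbered 1 stood apart: the Y-linked gene Ddx3y was at 1856 and 1975 in them and at the floor in the other 8, and Xist was at 1651 and 2172 against 7873 to 13871 elsewhere.

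Promoter sequences show the STAT and interferon motifs that the SOCS genes are known for, so they are given for the 3 members with the largest LPS responses. RefSeq (build GRCm38.p6) gave a promoter entry, 250 bases before to 50 after the gene's start, for 4 of the 8 members: Socs1, Socs3, Socs4 and Cish. Capitals mark matches on either strand to TTCNNNGAA (GAS, the gamma-activated sequence that STAT dimers bind) or GAAANNGAAA (the core of the interferon-stimulated response element, ISRE).
Socs1 (chr16:10785537-10785786, minus strand): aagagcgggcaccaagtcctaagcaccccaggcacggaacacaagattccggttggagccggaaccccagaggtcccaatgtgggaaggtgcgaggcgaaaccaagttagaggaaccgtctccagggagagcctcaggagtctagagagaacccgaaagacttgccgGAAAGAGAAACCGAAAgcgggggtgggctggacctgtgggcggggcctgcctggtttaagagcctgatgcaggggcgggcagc
Socs3 (chr11:117969452-117969616, minus strand): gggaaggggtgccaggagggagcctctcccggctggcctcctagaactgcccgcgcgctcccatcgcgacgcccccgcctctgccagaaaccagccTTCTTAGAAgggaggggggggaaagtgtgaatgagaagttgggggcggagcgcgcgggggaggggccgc
Cish (chr9:107296654-107296683, plus strand): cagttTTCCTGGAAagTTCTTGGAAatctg
In Socs1, 2 overlapping ISRE core matches lay at -83 to -74 and -77 to -68 from the RefSeq start. In Socs3, 1 GAS match lay at -154 to -146 from the RefSeq start, in a stretch that lies within the GENCODE span of the gene. In Cish, 2 GAS matches lay at 1 to 9 and 12 to 20, in a stretch that a GENCODE transcript counts as exon. The Socs4 entry held no match to these motifs, nor to TTCNNNNGAA or GGGANNTTCC, which were also searched. Among 32851 mouse promoters of the same length, 8.30% held a GAS match and 0.457% held 2 or more. An ISRE core match stood in 3.44% and 2 or more in 0.225%, while TTCNNNNGAA stood in 6.95% and GGGANNTTCC in 1.47%. A match is a description of letters and not a bound site.

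Positions follow GENCODE M21 on GRCm38. Socs1 lies on chromosome 16 (10782240 to 10785536, minus strand), Socs3 on chromosome 11 (117966079 to 117970047, minus) and Cish on chromosome 9 (107296026 to 107302784, plus). Socs2 lies on chromosome 10 (95385362 to 95417180, minus) and Socs4 on chromosome 14 (47276931 to 47296102, plus). Socs5 is on chromosome 17 (87107679 to 87137839, plus) and Socs6 on chromosome 18 (88665224 to 88927481, minus). Socs7 shares chromosome 11 with Socs3 (97362551 to 97398542, plus). All are protein-coding. Exons of Cish overlap the antisense genes Gm17040 and Gm17041 over 582 bases, and reads from the strands cannot be told apart there because the strand setting of the counting is not given. Neither antisense gene is in the table, and the other 7 members overlap no annotated exon of another gene.

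Untreated resident macrophages already carried far higher levels of Socs3, Socs1 and Cish than untreated BMDM. By mean normalized reads in untreated resident cells, Socs3 lay above 98.6% of the genes tested, Socs1 above 80.4% and Cish above 60.9%. Socs3, the brake on IL-6 family and G-CSF receptors, was at 26834, 19642 and 12960 normalized reads in the 3 untreated resident libraries and at 206 and 219 in the 2 untreated BMDM libraries. Socs1, the main brake on interferon gamma signalling, was at 2059, 2407 and 2091 against 63.8 and 62.1. Cish, a STAT5 target that restrains IL-2 family and growth hormone type receptors, was at 969, 978 and 565 against 15.5 and 16.5. For these 3 genes every resident library lay above every BMDM library, and the resident library numbered 3 was the lowest for Socs3 and Cish. The BMDM values rested on 226 to 240 recovered reads per library for Socs3, 68 to 70 for Socs1 and 17 to 18 for Cish.

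Across the family, 6 of 8 members were higher in untreated resident macrophages than in untreated BMDM and none was lower (limma, Benjamini-Hochberg adjusted p under 0.05, and none lower at an unadjusted p under 0.05). The same call was made for 71.9% of all 13755 genes tested, 39.2% higher and 32.6% lower. Differences were 6.47 ± 0.24 (log2 ± SE, adjusted p = 4.71e-09 by limma) for Socs3, 5.58 ± 0.20 (4.72e-09) for Cish and 5.09 ± 0.10 (1.71e-10) for Socs1. These 3 ranked 152nd, 262nd and 381st from the highest of all genes. Socs2, the brake on growth hormone signalling, stood at 242, 228 and 160 against 44.7 and 44.8, a difference of 2.18 ± 0.19 (limma adjusted p = 3.43e-06). Socs7, which binds adaptor proteins such as NCK, was higher by 1.03 ± 0.13 (limma adjusted p = 5.33e-05), and Socs4, described as a regulator of the EGF receptor, by 0.57 ± 0.12 (0.00206).

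Socs5 and Socs6 were not called between the untreated groups. Socs5, described as a regulator of IL-4 and EGF receptor signalling, was at 908, 864 and 890 in resident libraries and at 908 and 818 in BMDM, so the groups overlapped. Its difference was 0.04 with a 95% interval of -0.15 to 0.24. Socs6, a binding partner of the KIT receptor, was at 1029, 786 and 710 against 986 and 996, a difference of -0.25 (95% interval -0.57 to 0.07). It was called lower without the resident libraries numbered 1 (-0.41, limma adjusted p = 0.00226), with equal library totals (-0.44, 0.00329), with voom on recovered reads (-0.41, 0.00567) and after quantile normalization (-0.37, 0.0392). Groups did not overlap for 6 of 8 members, against 82.7% of all genes. The median difference was 1.61 over the members and 0.08 over all genes. Of all called genes 54.6% were higher, and 46.0% with libraries scaled to equal totals or 41.5% after quantile normalization. Equal totals, in this and all later comparisons, were counted without the gene Rn45s, which held 0.151% to 4.70% of a library.

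**Figure D1:**
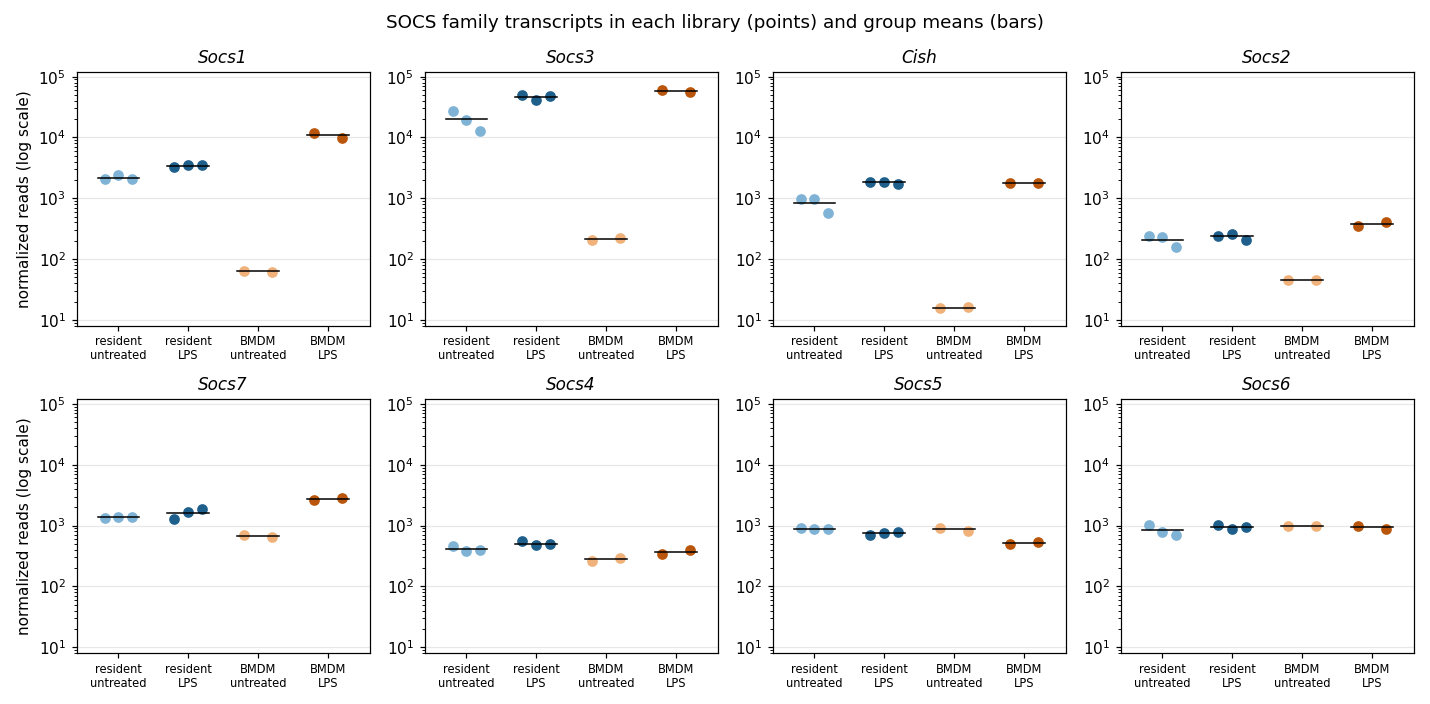
Normalized reads (log axis) of the 8 SOCS family genes in each library (points) with group means (bars), for untreated and LPS-treated resident macrophages and BMDM. Socs3, Socs1 and Cish were low only in the untreated BMDM group (206 to 219, 62.1 to 63.8 and 15.5 to 16.5), while Socs5 and Socs6 stayed between 504 and 1029 in all 10 libraries.

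Normalized reads per kb of merged exon allow levels to be compared between genes. In untreated resident macrophages the order was Socs3 (7763 ± 2719 per kb, SD, n = 3), Socs1 (752 ± 66.1), Cish (230 ± 64.7), Socs7 (196 ± 4.48), Socs5 (191 ± 4.70), Socs6 (137 ± 27.2), Socs2 (77.8 ± 16.2) and Socs4 (60.2 ± 5.38). The ranges over libraries overlapped for Cish with Socs7, for Socs7 with Socs5 and for Socs2 with Socs4. Such an overlap does not compare the genes within a library, which was not tested. In untreated BMDM the order was Socs5 (186 ± 13.7 per kb, SD, n = 2), Socs6 (161 ± 1.14), Socs7 (96.1 ± 3.59), Socs3 (83.3 ± 3.70), Socs4 (40.5 ± 3.08), Socs1 (21.7 ± 0.404), Socs2 (16.6 ± 0.0307) and Cish (4.38 ± 0.185), with no overlap between neighbours.

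Grouped by protein structure, the leading branch of the family was not the same in the 2 untreated groups. Cish and Socs1 to Socs3 form the branch with short N-terminal regions, and Socs4 to Socs7 the branch with long ones. The first branch made up 91.4% to 94.9% of the family's summed level per kb in untreated resident libraries and 20.0% to 21.3% in untreated BMDM. The summed level of the second branch was 566 to 621 per kb in untreated resident libraries and 474 to 493 in untreated BMDM, so it did not overlap between them but spanned a far narrower range than the first, at 6011 to 11578 and 123 to 128 per kb. Socs3 alone held 77.2% to 86.2% of the family sum in untreated resident libraries and 13.1% to 14.3% in untreated BMDM.

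With LPS the first branch led in both kinds of cell, at 96.8% to 97.4% of the family sum in resident and 97.3% to 97.6% in BMDM libraries. In LPS-treated resident cells the order per kb was Socs3 (18375 ± 1756, SD, n = 3), Socs1 (1182 ± 56.5), Cish (503 ± 21.7), Socs7 (230 ± 42.2), Socs5 (161 ± 9.61), Socs6 (153 ± 11.6), Socs2 (87.4 ± 9.15) and Socs4 (73.3 ± 6.05). Neighbours overlapped for Socs5 with Socs6 and for Socs2 with Socs4. In LPS-treated BMDM it was Socs3 (23020 ± 1106 per kb, SD, n = 2), Socs1 (3740 ± 438), Cish (485 ± 1.56), Socs7 (393 ± 22.2), Socs6 (152 ± 12.5), Socs2 (141 ± 14.96), Socs5 (112 ± 4.95) and Socs4 (54.2 ± 5.56). Here the libraries of Socs6 and Socs2 overlapped.

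**Figure D2:**
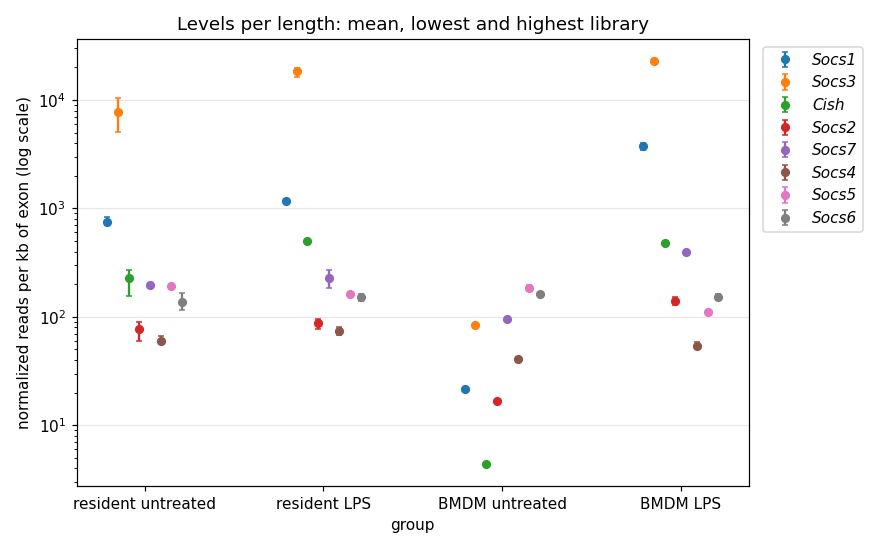
Normalized reads per kb of merged exon (log axis) for each SOCS family gene in the 4 groups, as the mean with the lowest and highest library. Socs3 is the highest member in 3 groups, at 5078 to 23802 per kb, and the fourth in untreated BMDM, at 80.7 to 86.0 per kb.

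In resident macrophages, LPS raised Socs3, Cish and Socs1 and no other member was called. Socs3 went from 26834, 19642 and 12960 normalized reads without LPS to 50642, 41930 and 48109 with it. Its means were 19812 ± 6939 and 46894 ± 4481 (SD, n = 3 each), a log2 change of 1.30 ± 0.21 (limma adjusted p = 0.0041), the 157th highest of all genes. Every LPS-treated library lay above every untreated one, and the untreated libraries spread far more than the treated ones.

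Cish stood at 969, 978 and 565 without LPS and at 1876, 1882 and 1742 with it, again with no overlap. Its change was 1.17 ± 0.18 (limma adjusted p = 0.0034), the 206th highest. Socs1 stood at 2059, 2407 and 2091 without LPS and at 3254, 3570 and 3491 with it, a change of 0.66 ± 0.09 (limma adjusted p = 0.00154). The Socs1 libraries lay close together within each group and the groups did not overlap. All 3 calls remained when any library was left out, with changes of 1.03 to 1.55 for Socs3, 0.91 to 1.31 for Cish and 0.61 to 0.73 for Socs1. Without the resident libraries numbered 1 the changes were 1.49, 1.28 and 0.65. The main fit shares its estimate of the spread with the BMDM libraries. When only the resident libraries were fitted, the limma adjusted p was 0.0324 for Socs3, 0.0241 for Cish and 0.0123 for Socs1.

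The other 5 members were not called in resident macrophages. Socs4 stood at 456, 386 and 400 without LPS and at 550, 470 and 492 with it (log2 change 0.28 ± 0.11, limma adjusted p = 0.128). Socs5 stood at 908, 864 and 890 and at 705, 751 and 794 (-0.24 ± 0.08, limma adjusted p = 0.0718). For both genes the groups did not overlap, and with libraries scaled to equal totals Socs5 was called lower (-0.36, limma adjusted p = 0.0289). Socs2 (0.19, 95% interval -0.20 to 0.57), Socs6 (0.17, -0.11 to 0.46) and Socs7 (0.21, -0.05 to 0.47) had overlapping groups. Socs7 was called higher without LPS-treated library 1 (0.36, limma adjusted p = 0.0212), and Socs6 without untreated library 1 (0.33, 0.038).

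The count of 3 of 8 members called, all higher, stood against 12.9% of all genes called in this comparison, 7.36% higher and 5.57% lower. Groups did not overlap for 5 of 8 members and for 27.1% of all genes. The median change was 0.25 over the members and 0.00 over all genes. Of all called genes 56.9% were higher, and 27.1% with libraries scaled to equal totals.

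Transcripts of other cell types varied between the untreated resident libraries alongside Socs3. The neutrophil marker sum was 0.775%, 1.26% and 1.60% in untreated libraries 1, 2 and 3, and Socs3 was highest in library 1 and lowest in library 3. Cish was lowest in library 3, and Socs1 had no such order. With LPS the sum was 1.23%, 1.45% and 1.44%. Between LPS-treated and untreated resident cells, 1 of the 15 neutrophil markers was called higher and 2 lower. Of all genes, 7.36% were called higher and 5.57% lower in that comparison. Sums of 3 other marker lists had the same order in the untreated libraries. In libraries 1, 2 and 3 the B lineage sum was 0.0184%, 0.0264% and 0.0386%, the erythroid sum 0.121%, 0.138% and 0.188%, and the sum of mast cell, basophil and eosinophil markers 0.0353%, 0.0483% and 0.0528%. Megakaryocyte markers (0.0520%, 0.186% and 0.138%) and stem and progenitor markers (0.00769%, 0.0160% and 0.0151%) were also lowest in library 1. T and NK cell markers (0.0121%, 0.0101% and 0.0110%) and macrophage markers (0.981%, 0.767% and 0.820%) were highest there. The part of these transcripts in the results was not tested.

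**Figure D3:**
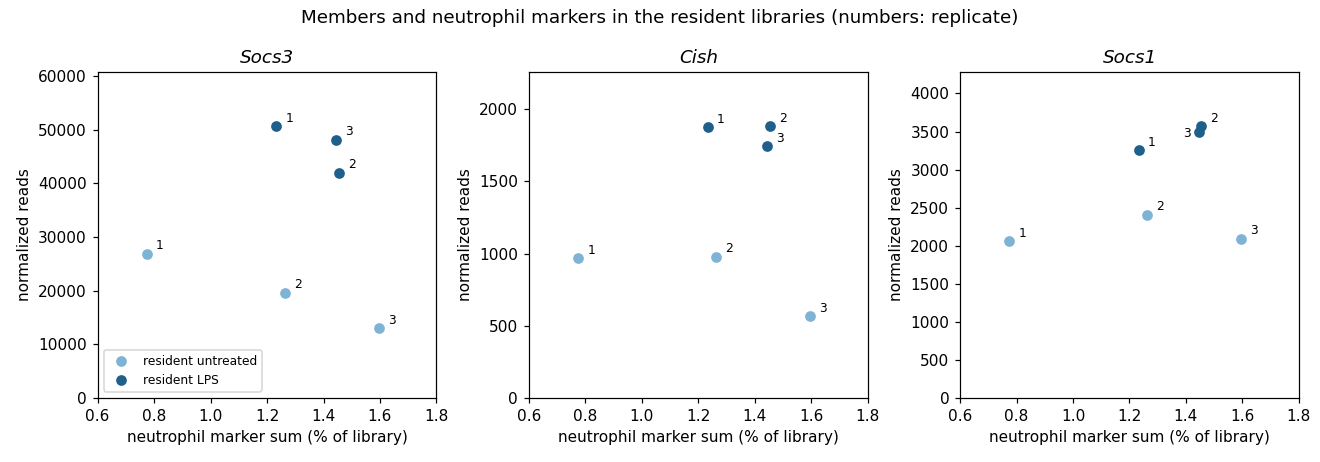
Normalized reads of Socs3, Cish and Socs1 against the summed level of 15 neutrophil markers (percent of the normalized reads of the library) in the 6 resident libraries, with replicate numbers. Among untreated libraries Socs3 falls from 26834 at a marker sum of 0.775% to 12960 at 1.60%, while the LPS-treated libraries lie at 41930 to 50642 with sums of 1.23% to 1.45%.

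In BMDM the same 3 genes rose from low levels to levels above or near those of LPS-treated resident cells. Socs3 went from 206 and 219 normalized reads without LPS to 60744 and 56751 with it, a ratio of means of 276. Socs1 went from 63.8 and 62.1 to 11778 and 9976, a ratio of 173. Cish went from 15.5 and 16.5 to 1772 and 1764, a ratio of 111. The groups lay far apart for each gene, and the replicate libraries lay close together.

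On the log2 scale with a pseudocount of 1, which understates changes of low genes, Socs1 rose by 7.40 ± 0.11 (limma adjusted p = 6.35e-11) and Cish by 6.70 ± 0.22 (2.60e-09). Of the 13755 genes tested, 42nd was the rank of the change in Socs3 from the highest, 59th that in Socs1 and 91st that in Cish. The other rises were in genes with smaller changes. Socs2 stood at 44.7 and 44.8 without LPS and at 351 and 408 with it, a rise of 3.05 ± 0.21 (limma adjusted p = 6.36e-07). Socs7 stood at 692 and 656 and at 2646 and 2866, a rise of 2.03 ± 0.14 (limma adjusted p = 7.85e-07).

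Socs5 was the only member called lower with LPS in BMDM. It stood at 908 and 818 without LPS and at 504 and 536 with it, a fall of 0.73 ± 0.10 on the log2 scale (limma adjusted p = 9.48e-05). Socs4 stood at 263 and 293 without LPS and at 345 and 400 with it and was called higher (0.42 ± 0.14, limma adjusted p = 0.0233), but its change was -0.23 with libraries scaled to equal totals. Its call was also lost without untreated BMDM library 1 (0.34, limma adjusted p = 0.144) or LPS-treated library 2 (0.31, 0.163). Socs6 stood at 986 and 996 and at 990 and 882, with overlapping groups and a change of -0.09 (95% interval -0.43 to 0.26). It was called lower with libraries scaled to equal totals (-0.73, limma adjusted p = 0.000236).

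In this comparison 7 of 8 members were called, 6 higher and 1 lower, against 57.8% of all genes, 28.3% higher and 29.5% lower. Groups did not overlap for 7 of 8 members and for 84.4% of all genes. The median change was 2.54 over the members and -0.04 over all genes. Scaling libraries to equal totals put the median of all genes at -0.67 and the changes at 7.46 for Socs3, 6.76 for Socs1, 6.07 for Cish, 2.41 for Socs2, 1.38 for Socs7 and -1.37 for Socs5. Of all called genes 49.0% were higher, and 20.9% under that scaling.

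**Figure D4:**
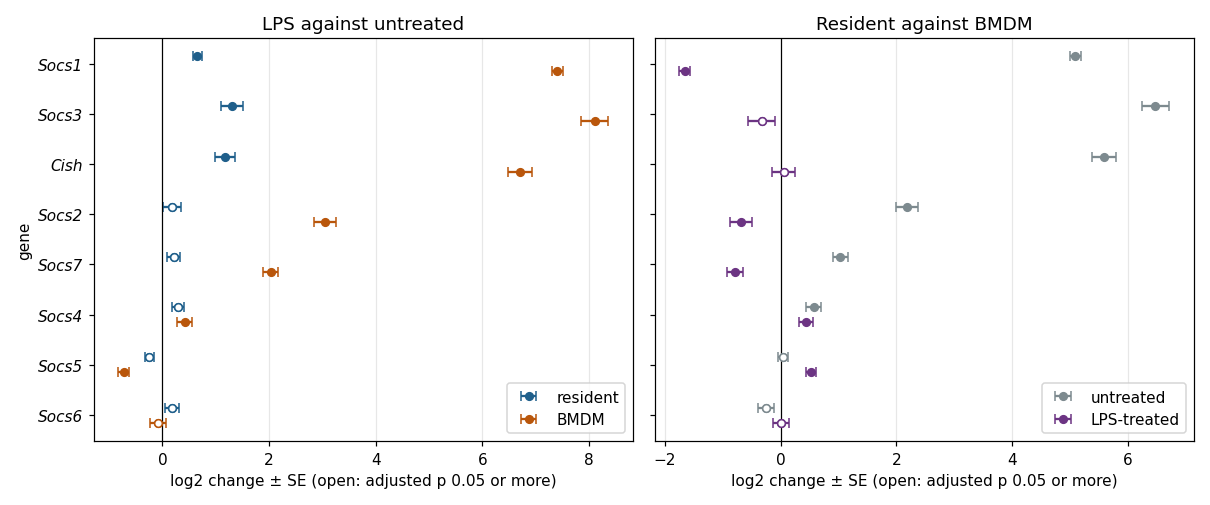
Log2 changes with SE from limma for the 8 SOCS family genes, for LPS against untreated cells (left) and for resident macrophages against BMDM (right), with open points at an adjusted p of 0.05 or more. Socs1, Socs3 and Cish changed by 0.66 to 1.30 with LPS in resident cells and by 6.70 to 8.10 in BMDM. With LPS no member differed by more than 1.66 between the kinds of cell.

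The LPS responses themselves differed between resident macrophages and BMDM for 6 of 8 members. Smaller responses in resident cells gave differences (resident minus BMDM, log2) of -6.80 ± 0.33 (limma adjusted p = 1.22e-07) for Socs3, -6.75 ± 0.14 (3.28e-09) for Socs1 and -5.53 ± 0.29 (1.90e-07) for Cish. The value was -2.87 ± 0.27 (limma adjusted p = 1.51e-05) for Socs2 and -1.82 ± 0.19 (2.63e-05) for Socs7. For Socs5, whose change was negative in both kinds of cell, the difference was 0.48 ± 0.12 (limma adjusted p = 0.0105). That call was lost without untreated BMDM library 1 (0.41, limma adjusted p = 0.0666) or LPS-treated BMDM library 1 (0.44, 0.0522). Socs4 (-0.13, 95% interval -0.52 to 0.26) and Socs6 (0.26, -0.19 to 0.71) were not called, and Socs6 was called without untreated resident library 1 (0.41, limma adjusted p = 0.0334) and with equal library totals (0.78, 0.00152).

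Of the 6 called members 5 were lower and 1 higher, against 41.8% of all genes called, 22.8% lower and 19.0% higher. The median difference was -2.34 over the members and 0.02 over all genes. Of all called genes 45.5% were higher, and 76.8% with libraries scaled to equal totals. This contrast is built from the same libraries as the other comparisons, so its values are not independent of theirs.

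After LPS, Socs1 was called between the 2 kinds of cell, while Socs3 and Cish were not called in the main fit. Socs1 stood at 3254, 3570 and 3491 in resident libraries and at 11778 and 9976 in BMDM, lower in resident cells with a log2 difference of -1.66 ± 0.10 (limma adjusted p = 2.11e-07). Socs3 stood at 50642, 41930 and 48109 against 60744 and 56751, and its difference of -0.33 had a 95% interval of -0.85 to 0.20 (limma adjusted p = 0.231). Every resident library lay below every BMDM library for Socs3. It was called lower when only the LPS-treated libraries were fitted (limma adjusted p = 0.043) and with a weight per library (array weights, -0.36, 0.0437). Its difference was 0.19 after quantile normalization and 0.0077 with equal totals. Cish stood at 1876, 1882 and 1742 against 1772 and 1764, with overlapping groups and a difference of 0.05 (95% interval -0.40 to 0.50).

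Among the other members, Socs7 was lower in LPS-treated resident cells (1296, 1657 and 1883) than in LPS-treated BMDM (2646 and 2866), a difference of -0.79 ± 0.13 (limma adjusted p = 0.000349). Socs2, at 241, 258 and 209 against 351 and 408, was lower by a difference of -0.68 ± 0.19 (limma adjusted p = 0.00885). The Socs2 call was lost with equal totals (-0.35, limma adjusted p = 0.115) and without LPS-treated BMDM library 2 (-0.58, 0.0807). Socs5, at 705, 751 and 794 against 504 and 536, was higher in resident cells by 0.53 ± 0.09 (limma adjusted p = 0.000361). Socs4 was higher by 0.44 ± 0.12 (limma adjusted p = 0.00951), a call lost without LPS-treated BMDM library 1 (0.33, 0.0994) and after quantile normalization (0.30, 0.0833). Socs6 overlapped between the groups, with a difference of 0.01 (95% interval -0.31 to 0.32), and was called higher with equal library totals (0.34, limma adjusted p = 0.0138).

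In all, 5 of 8 members were called between the LPS-treated groups, 2 higher and 3 lower in resident cells, against 71.3% of all genes, 36.7% higher and 34.5% lower. Groups did not overlap for 6 of 8 members and for 82.4% of all genes. The median difference was -0.16 over the members and 0.03 over all genes. Of all called genes 51.5% were higher, and 68.7% with libraries scaled to equal totals.

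The other genes of the pathway were counted by the same limma calls, and also with voom on recovered reads, which scales libraries by their totals. With LPS, limma called 7.36% of all genes higher and 5.57% lower in resident cells, and 28.3% higher and 29.5% lower in BMDM. Voom called 4.86% higher and 12.3% lower in resident cells, and 15.3% higher and 55.4% lower in BMDM. At an unadjusted p under 0.05 the limma shares were 14.0% higher and 13.5% lower in resident cells, and 30.1% higher and 31.9% lower in BMDM. Cytokine ligands of JAK-coupled receptors rose in both kinds of cell. Of 26 ligands listed, 20 were in the table and tested. In resident cells 13 rose (65.0%) and none fell, and in BMDM 19 rose (95%) and none fell. The medians were 1.37 and 4.35, against 0.00 and -0.04 over all genes. Every gene in the table reached 10.05 or more in some library. A ligand below that level in all untreated libraries is thus in the table only if it was higher with LPS. The shares that rose can partly reflect this limit. With voom 13 and 17 rose and none fell, and at an unadjusted p under 0.05 no ligand was lower in either kind of cell. Il12b, an IL-12 and IL-23 subunit, rose by 3.22 ± 0.29 in resident cells (limma adjusted p = 0.000208), with 35.6 ± 15.4 normalized reads without LPS and 319 ± 13.4 with it (SD, n = 3 each). Il6 rose from 481 ± 192 to 2431 ± 398 normalized reads (SD, n = 3 each) in resident cells and stood at 5.06 ± 5.74 and 29282 ± 2022 (SD, n = 2 each) in BMDM. Il27, another cytokine that signals through gp130, stood at 8.21 ± 2.57 without LPS and at 10874 ± 288 with it in BMDM.

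Of 37 JAK-coupled receptors listed, 36 were in the table and tested, and 3 rose and 2 fell in resident cells. These shares, 8.33% and 5.56%, were near those of all genes. In BMDM 21 rose (58.3%) and 5 fell (13.9%), and the medians were 0.17 in resident cells and 0.57 in BMDM. With voom the BMDM split was 14 higher and 13 lower. In resident cells Il2ra rose by 1.43 ± 0.25 and Il15ra by 0.80 ± 0.14, while Il6ra fell by 0.49 ± 0.11 and Ifngr1 by 0.33 ± 0.06 on the log2 scale. In BMDM Il15ra rose by 6.53 ± 0.17, and Osmr, the oncostatin M receptor, was at the floor without LPS and at least 60.2-fold higher with it, counted against 3 reads per library. Il7r fell by 1.48 ± 0.22, and Epor, the erythropoietin receptor, by 1.51 ± 0.41, to 8.53 ± 2.48 normalized reads (SD, n = 2).

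Of the 10 JAK kinases and STAT factors analysed here, 4 rose (40.0%) and none fell in resident cells, and 9 rose (90.0%) and 1 fell (10.0%) in BMDM. With voom 8 rose and 1 fell in BMDM and 2 rose in resident cells, where 8 were higher and none lower at an unadjusted p under 0.05. Jak2 went from 8997 ± 911 to 15615 ± 472 (SD, n = 3 each) in resident cells, a rise of 0.80 ± 0.08, and from 1732 ± 13.5 to 44023 ± 558 (SD, n = 2 each) in BMDM, a rise of 4.67 ± 0.10. Stat5a, a factor known to induce Cish, rose by 1.18 ± 0.17 in resident cells and 3.63 ± 0.20 in BMDM. Stat3, the IL-6 and IL-10 factor, stood at a change of 0.25 ± 0.08 (limma adjusted p = 0.0604) in resident cells and rose by 2.30 ± 0.10 in BMDM. Stat6, the IL-4 factor, fell by 0.47 ± 0.08 in BMDM. The responses differed between the kinds of cell for 9 of these 10 genes. For 8 the difference (resident minus BMDM) was negative, with smaller changes in resident cells (80.0%, against 22.8% of all genes). For Stat6, whose change in resident cells was -0.08 (limma adjusted p = 0.504), it was 0.39 ± 0.11, as the fall was in BMDM. For Stat4 the difference was not called (-0.75, limma adjusted p = 0.128).

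**Figure D5:**
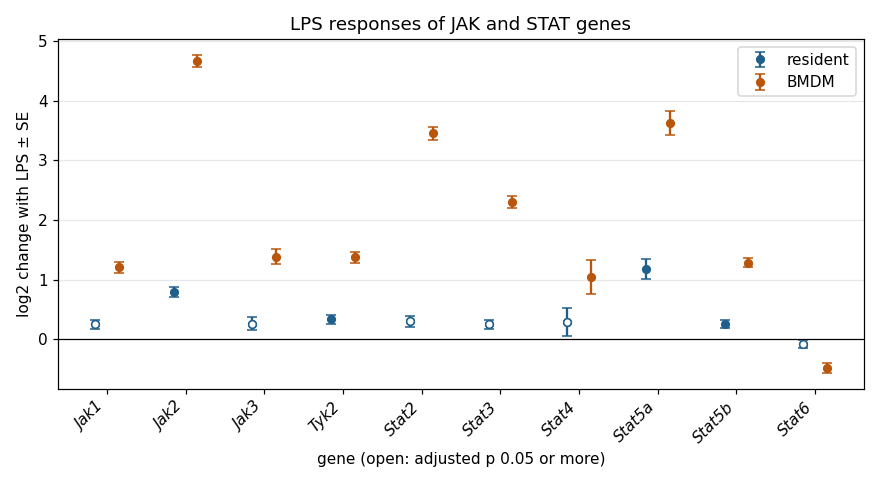
Log2 changes with SE from limma for the 10 JAK and STAT genes analysed here with LPS, in resident macrophages and BMDM, with open points at an adjusted p of 0.05 or more. Jak2 has the largest BMDM change at 4.67 and Stat5a the largest resident change at 1.18, and Stat6 is the one gene with a called fall, at -0.47 in BMDM.

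Before LPS, 8 of these 10 JAK and STAT genes were higher in resident cells than in BMDM (80.0%, against 39.2% of all genes) and 1 was lower, Stat6 by a difference of -0.26 ± 0.07. Stat2 was higher by 2.84 ± 0.10, Jak2 by 2.37 ± 0.09 and Stat3 by 1.55 ± 0.09. With LPS, 2 were higher in resident cells (Stat4 and Jak3) and 7 lower (70.0%, against 34.5% of all genes), among them Jak2 with a difference of -1.50 ± 0.09. Ligands showed 18 of 20 higher (90.0%) and none lower in untreated resident cells. A ligand below 10.05 in untreated BMDM is in the table only if it was higher in a library of another group. These shares can partly reflect that limit too. With LPS 9 were higher (45%) and 7 lower (35.0%), against 36.7% and 34.5% of all genes.

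Brakes other than the SOCS genes included 13 tested genes, of which 5 rose (38.5%) and none fell in resident cells and 7 rose (53.8%) and 3 fell (23.1%) in BMDM. With voom 4 rose and 1 fell in resident cells and 4 rose and 5 fell in BMDM, and at an unadjusted p under 0.05 limma had 7 higher and 2 lower in resident cells. Usp18, a brake on type I interferon receptor signalling, rose by 0.58 ± 0.11 in resident cells and 6.23 ± 0.14 in BMDM, and Pias2 rose by 0.46 ± 0.11 in resident cells. The phosphatase gene Ptpn2 rose by 2.13 ± 0.13 in BMDM, where the adaptor Sh2b3 fell by 0.93 ± 0.12 and Pias3 by 0.77 ± 0.15.

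Of the 9 ubiquitin ligase partners of the SOCS box, none was called in resident cells by limma or voom, 1 was higher at an unadjusted p under 0.05, and their median was 0.07. In BMDM 4 rose (44.4%) and none fell with limma (median 0.31, and 5 higher and none lower at an unadjusted p under 0.05), but 2 rose and 6 fell with voom. Ube2f, a conjugating enzyme for the ubiquitin-like NEDD8, rose by 1.75 ± 0.14 and the scaffold Cul2 by 1.55 ± 0.10 in BMDM. Of 20 other SOCS box genes listed, 16 were in the table and tested, and 3 fell (18.8%) and none rose in resident cells. In BMDM 5 rose and 6 fell, and these shares, 31.2% and 37.5%, were near those of all genes. With voom 5 fell and none rose in resident cells, and 2 rose and 11 fell in BMDM. At an unadjusted p under 0.05, 3 were higher and 4 lower in resident cells. Asb2 fell by 1.16 ± 0.26 and Neurl2 by 1.10 ± 0.18 on the log2 scale in resident cells. In BMDM Spsb1 rose by 2.67 ± 0.17 and Asb13 by 2.45 ± 0.11, while Spsb4 fell by 2.63 ± 0.52, and Asb4 stood at 60.7 ± 4.63 normalized reads without LPS and at 5.30 ± 5.59 with it (SD, n = 2 each).

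Described SOCS substrates outside the receptors showed 1 rise of 12 in resident cells, Map3k5 (0.60 ± 0.11), a share of 8.33% that was near the 7.36% of all genes. In BMDM 6 of 12 rose, against 28.3% of all genes, among them Nck1 (2.07 ± 0.17) and Rela (1.84 ± 0.09), and no substrate was called lower by limma in either kind of cell. With voom none rose and 2 fell in resident cells, and 3 rose and 2 fell in BMDM. At an unadjusted p under 0.05, 3 were higher and 2 lower in resident cells, and 6 higher and none lower in BMDM. Of 24 known STAT target genes, 13 rose (54.2%) and 2 fell (8.33%) in resident cells and 18 rose (75.0%) and 4 fell (16.7%) in BMDM, with medians of 0.45 and 2.05. With voom 12 rose and 2 fell, and 17 rose and 5 fell. In resident cells Il1rn rose by 1.50 ± 0.27 and Pim2 by 1.32 ± 0.12. In BMDM Cxcl9 went from 5.02 ± 0.636 to 5992 ± 195 normalized reads and Gbp2 rose by 7.63 ± 0.21. Fos and Id1 fell in both, with changes of -0.58 ± 0.09 (resident) and -2.32 ± 0.11 (BMDM) for Fos and -0.64 ± 0.10 and -1.75 ± 0.13 for Id1.

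Some genes followed a member closely over the 10 libraries, by Pearson's r of log2 values among 12314 genes with a mean of at least 20. The points share the 4 groups, so r mostly reflects the group means and is given as a description. Socs3 was followed most closely by Traf1 (r = 0.999), Arhgef3 and Ccl4, and Cish by Ccl4 (r = 0.999), Traf1 and Oas1a. Cish stood 11th in the order for Socs3, at r = 0.998. Socs1 was followed by Apobec3 (r = 0.999), Tor3a and Etnk1, and Socs2 by Fbxo7, Mndal and Nt5c3. For Socs7 the genes were Ep400, Pxk and Sh3bgrl2, for Socs4 Zbed4, Nmd3 and Snx18, and for Socs5 Mknk1, Natd1 and Prune. Socs6 had the least close neighbour, P2ry6 at r = 0.932.

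Traf1 and Ccl4 had the Socs3 order of groups. Traf1 means were 5637 in untreated resident cells, 10757 with LPS, 242 in untreated BMDM and 12320 with LPS, and Ccl4 means were 29044, 78965, 268 and 85008. Apobec3, nearest to Socs1, had means of 3283, 4003, 579 and 7277 in the same order of groups. Mknk1, nearest to Socs5, had means of 1753, 1504, 1721 and 1037, lowest in LPS-treated BMDM as Socs5 was.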

How the data were processed

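Total RNA was sequenced with the NEBNext Ultra RNA kit, per the labels. In the deposited signal values, the authors scaled read counts per gene by a factor for each library. Values above the floor of 1 were checked to be whole multiples of 1 step per library (0.892 to 1.35) in 100% of cases, within a tolerance of 0.02. Recovered reads assume that this step is 1 read. HISAT 0.1.7 and the build mm10 are named, per the submitters' processing notes. For trimming, annotation and counting, the program is not given in the sources used here.

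Groups follow the labels, and all 10 libraries were used. Values were analysed as log2(value + 1) with limma 3.58.1 in R 4.3.3, in 1 model of the 4 groups (6 residual degrees of freedom) with variances moderated along a trend. The filter asked for 10 or more in at least 2 libraries, which kept 13755 genes and dropped 54. P-values (2-sided) had Benjamini-Hochberg adjustment over these genes within each of 5 contrasts, and an adjusted p under 0.05 was a call. As a check of the code, the fit was run on simulated counts drawn from untreated BMDM means with the same spread setting throughout. That run cannot show how the fit handles groups of unequal spread. Levels per kb used GENCODE M21 merged exons. Tables and figures were made with Python 3.11.15, pandas 2.3.3 and matplotlib 3.10.9.

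The members and the 8 pathway and 8 marker lists were chosen with earlier results of these data known. Named genes were all members, the JAK and STAT genes analysed here (1 gene is not reported here), and per list and LPS contrast up to 2 called rises and 2 called falls with the largest change and a mean of at least 20. For likeness, the 3 genes with the highest r per member were named. Marker genes given singly, Y-linked genes and Xist were named after their values were seen. Alternatives covered pseudocounts, filters, scalings, variance models, voom on recovered reads, fitting only the groups compared, and leaving out libraries.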

Additional observations from a re-analysis of the deposited data

Results flagged for a closer look

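The LPS responses of 6 members differed between resident macrophages and BMDM by the limma test of the difference itself. As log2 change in resident cells minus that in BMDM, the difference was -6.80 for Socs3, -6.75 for Socs1, -5.53 for Cish, -2.87 for Socs2 and -1.82 for Socs7. These 5 had smaller log2 changes in resident cells, where their untreated levels were 2.04 to 93.2 times those of untreated BMDM. By its construction the value is the resident minus BMDM difference with LPS, less that without LPS. For Socs3 these 2 differences were -0.33 and 6.47, for Cish 0.05 and 5.58, and for Socs1 -1.66 and 5.09. The cause was not tested. For Socs5 the difference was 0.48, the other way, with changes of -0.24 in resident cells and -0.73 in BMDM. The groups had 2 or 3 libraries each. Fits without single libraries showed whether a call depended on 1 of them. With so few libraries they cannot show whether that library is an outlier.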

How the results depend on the processing

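Over 23 alternatives (22 for the difference of responses), the number of members called stayed at 3 to 4 in resident cells with LPS, 6 to 7 in BMDM with LPS, 6 to 7 between untreated groups, 4 to 6 between LPS-treated groups and 5 to 7 for the difference of responses. The calls and directions of Socs1, Socs2, Socs3, Socs7 and Cish in BMDM with LPS, between untreated groups and for the difference of responses held under every alternative run. Of 912 member values under alternatives, 867 kept direction and side of the threshold, 9 lost the call, 21 gained it and 15 changed sign.

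Sign changes were in members with small changes. Socs4 in BMDM with LPS was at -0.23 with equal library totals and -0.21 with voom on recovered reads, and its difference of responses at 0.39 and 0.37. Socs5 between untreated groups was at -0.15 with equal totals, -0.12 with voom and -0.035 with quantile normalization, and ran from -0.033 (without BMDM_untreated replicate 2) to 0.12 without single libraries. Socs3 between LPS-treated groups was at 0.19 with quantile normalization and 0.0077 with equal totals. Socs6 between LPS-treated groups was at -0.023 with array weights and -0.047 without both resident libraries numbered 1. Without single libraries it ran from -0.078 (without BMDM_LPS replicate 2) to 0.089, and was also below 0 without resident_LPS replicate 1 (-0.047) or 3 (-0.0013). The cause was not tested.

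The count of all genes called in resident cells with LPS, 1779, was 645 when only the 6 resident libraries were fitted. It was 2893 without both resident libraries numbered 1. Without single resident libraries it ran from 970 to 2290, with 970 without resident_LPS replicate 2 and 1185 without resident_untreated replicate 3. In BMDM with LPS the count went the other way, from 7953 to 9909, when only the BMDM libraries were fitted. The cause was not tested. Equal totals moved the median log2 value of all genes by over 0.1 in each comparison, to -0.12, -0.67, -0.11, 0.36 and 0.52 in the order of the counts above. A quasi-likelihood count test on recovered reads was not run. No paired analysis was possible because the labels give no replicate numbers that groups share. Depth limits Cish in untreated BMDM most, at 17 to 18 reads per library.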
